A study of Mus musculus with 4 samples.

Results

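The genes described here are 10 genes of MHC class I antigen presentation, chosen by gene symbol with no rule on their values: B2m, H2-K1, H2-D1, Tap1, Tap2, Tapbp, Psmb8, Psmb9, Psmb10 and Nlrc5. All 10 were listed in every sample, out of 18298 genes listed across the 4 samples, and all 10 passed the low-count filter of at least 10 reads in at least 2 samples, which kept 14123 genes for testing. The question put to them was whether chondrocytes that had lost the SUMO protease Senp6 differed in class I transcripts from chondrocytes that had kept it. RNA came from primary rib chondrocytes of E18.5 mouse embryos on a C57BL/6 background, sequenced at passage 1. The WT group had 2 samples of genotype Senp6f/f, which carry the floxed allele without Cre. The Senp6-Mut group had 2 samples of genotype Dermo1-Cre;Senp6f/f, in which Cre is expressed from the Dermo1 (Twist2) locus in mesenchymal progenitors of bone and cartilage. Both groups therefore carried the floxed allele, and the Cre allele was present in the mutants alone, so Cre expression and loss of Senp6 cannot be told apart.

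Class I molecules display peptides from inside the cell to cytotoxic T cells. The proteasome cuts proteins into peptides, the TAP transporter carries these into the endoplasmic reticulum, and tapasin holds the transporter to an empty heavy chain and β2-microglobulin until a peptide is bound. Interferon is known to raise most of these genes, partly through NLRC5, a transactivator that acts on an enhancer shared by many class I promoters. Most nucleated cells, those of cartilage included, carry class I genes at a basal level.

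The upstream sequences of the class I genes show how closely some of them are related. RefSeq promoters on GRCm38.p6 were found for 8 of the 10 genes, and not for Tap2 and Nlrc5. The 250 bases before the start of H2-K1 (chr17:34000348-34000597, minus strand), H2-D1 (chr17:35262844-35263093, plus strand) and B2m (chr2:122147437-122147686, plus strand) are printed because these genes encode the parts of the same surface complex. The 225 bases between the starts of Psmb9 and Tap1 (chr17:34187331-34187555, plus strand) are printed because both genes are transcribed away from them. Capitals mark matches, on either strand, to GAAANNGAA (the core of the interferon-stimulated response element), CCAAT, GGGATTCCC (the κB site of class I enhancers), TTTCACTTC (the class I interferon consensus core) and TGACG (the core of the X2 box). The last 3 were added after the sequences had been seen.
H2-K1: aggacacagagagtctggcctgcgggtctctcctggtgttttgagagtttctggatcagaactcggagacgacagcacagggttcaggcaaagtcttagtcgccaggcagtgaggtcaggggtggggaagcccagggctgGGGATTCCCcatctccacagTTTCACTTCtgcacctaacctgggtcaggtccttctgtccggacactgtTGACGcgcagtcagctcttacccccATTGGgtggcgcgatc
H2-D1: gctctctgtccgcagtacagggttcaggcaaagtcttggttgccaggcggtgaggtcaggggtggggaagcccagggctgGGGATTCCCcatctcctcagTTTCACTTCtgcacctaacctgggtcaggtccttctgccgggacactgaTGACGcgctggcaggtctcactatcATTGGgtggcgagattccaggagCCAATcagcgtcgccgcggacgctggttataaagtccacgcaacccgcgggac
B2m: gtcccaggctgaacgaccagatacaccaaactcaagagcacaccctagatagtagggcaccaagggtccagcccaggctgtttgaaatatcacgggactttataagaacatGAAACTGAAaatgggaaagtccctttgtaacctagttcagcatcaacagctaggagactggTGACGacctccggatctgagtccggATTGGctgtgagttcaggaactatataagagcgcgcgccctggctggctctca
Between Psmb9 and Tap1: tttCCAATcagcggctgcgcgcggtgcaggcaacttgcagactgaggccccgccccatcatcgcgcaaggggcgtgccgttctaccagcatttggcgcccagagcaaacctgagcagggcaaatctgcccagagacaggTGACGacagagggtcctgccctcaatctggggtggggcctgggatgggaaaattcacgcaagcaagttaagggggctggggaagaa

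The upstream sequences of H2-K1 and H2-D1 aligned over 177 columns with 91% identity, in the order κB core, interferon consensus core, TGACG and inverted CCAAT. Both heavy chain genes held GGGATTCCC, which is in 0.301% of the 32851 RefSeq promoters over the same length, and TTTCACTTC, which is in 0.402% of them. TGACG was present before 5 of the 8 genes (B2m, H2-K1, H2-D1, Tap1 and Psmb9) and in 17.8% of all promoters, and CCAAT before 6 of the 8 and in 33.8% of all promoters. For both motifs the matches of Tap1 and Psmb9 are the same bases of their shared segment, counted once for each gene. B2m alone among the 8 held GAAANNGAA, which is in 7.13% of promoters. Psmb8 alone held TTCNNNGAA, the gamma-activated sequence, which is in 7.02%. None of the 8 matched GGGANTTCC, a second κB core found in 1.43% of promoters, or TGACGTCA, the cyclic AMP response element found in 1.55%.

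Reads counted on genes came to between 21 and 31 (in units of 1e6) per sample, on 16617 to 17218 genes. Senp6 had 1125 and 2326 reads in WT replicates 1 and 2 and 1839 and 1126 in Senp6-Mut replicates 1 and 2, so the groups overlapped, with a log2 fold change of -0.56 (SE 0.279, edgeR quasi-likelihood test, Benjamini-Hochberg adjusted p = 0.410). The gene count includes exons outside the floxed part and does not measure the deletion. Xist was read 11354 times in Senp6-Mut replicate 2 and 2 to 5 times in the other samples, and the Y-linked genes Ddx3y, Eif2s3y, Kdm5d and Uty had 0 to 3 reads there, so embryo sex differed within the mutant pair. No gene of the 14123 had an adjusted p under 0.05 in edgeR in either direction, a background of 0%, while 2199 genes (15.6%, 9.29% higher and 6.28% lower) had an unadjusted p under 0.05. The lowest adjusted p of all genes in edgeR was 0.0512, just above the threshold. By sex the mutant samples came from different embryos. The labels do not say whether the WT samples did, or whether any came from separate litters. The p-values therefore weigh the group difference against the spread between these samples.

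The class I genes showed no common direction in the mutant chondrocytes. The light chain gene B2m had higher levels in both mutant samples than in both WT samples, at 1.47-fold, and the other 9 genes overlapped between the genotypes. In edgeR 0 of the 10 genes had an adjusted p under 0.05, as for all 14123 genes tested. B2m was the gene of the 10 with an unadjusted p under that value, where 15.6% of all tested genes had one. DESeq2 called 1 of the 10, again B2m and upward, where it called 3.07% of all genes higher and 1.86% lower, and limma on log2(RPKM + 1) or on log2(RPKM + 0.1) called none. None of the 10 was called without the low-count filter, where 1.23% of genes were called higher and 0.333% lower, or with replicate as a blocking term, where 0.595% were called higher and 0.234% lower. By CPM (counts scaled to the TMM-normalised library size), both mutants were above both WT samples for 1 of the 10 and below them for 0 of the 10, whereas 25.4% of all tested genes had both mutants higher, 22.8% both lower and 51.9% overlapping groups. The fitted log2 fold changes ran from -0.91 for Psmb9 to 0.56 for B2m, with 4 positive and 6 negative. Their median was -0.28, and the median of all tested genes was 0.01.

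**Figure D1:**
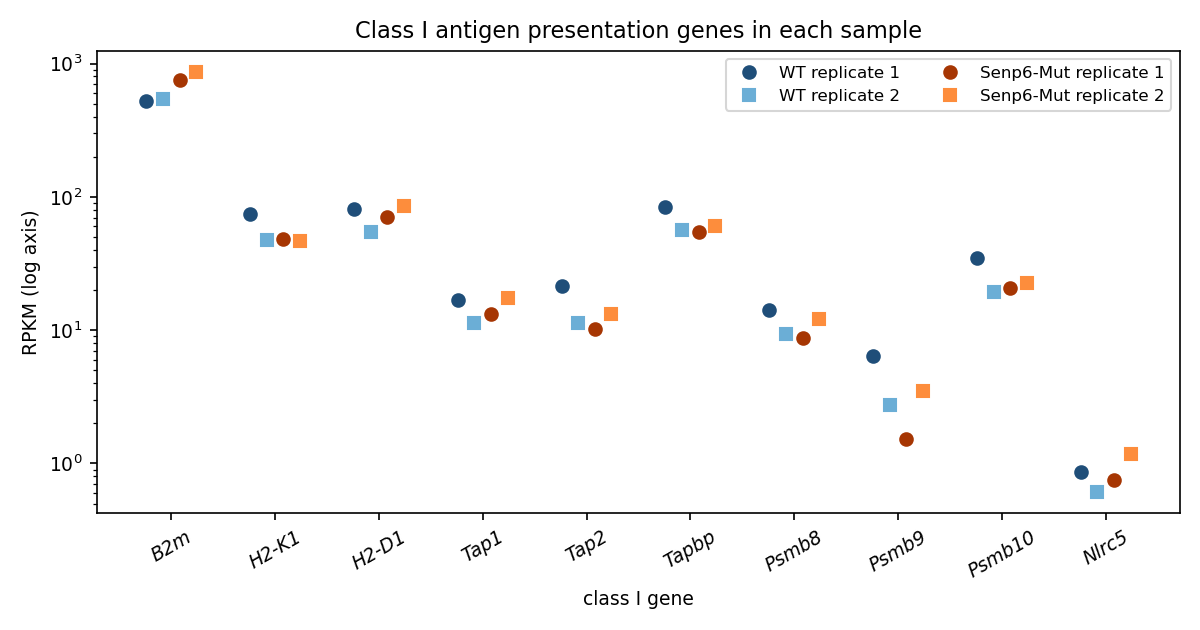
RPKM (reads scaled to gene length and to the reads on genes of the sample, log axis) of the 10 class I genes, 1 point per sample, with WT in blue and Senp6-Mut in orange and brown. B2m lies above 500 in every sample and separates the genotypes, whereas the points of the other 9 genes interleave.

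B2m encodes β2-microglobulin, the light chain that every class I heavy chain needs to reach the cell surface. Its RPKM was 528 in WT replicate 1, 539 in WT replicate 2, 751 in Senp6-Mut replicate 1 and 868 in Senp6-Mut replicate 2, from 9521 to 21036 reads. The lowest mutant value thus lay above the highest WT value, and the WT samples were closer to each other than the mutants were. The mean was 533 ± 7.73 (SD, n = 2) in WT and 810 ± 82.6 (SD, n = 2) in Senp6-Mut. The log2 fold change was 0.56 (SE 0.129, unadjusted p = 0.00406, adjusted p = 0.122, edgeR quasi-likelihood test), and it stayed between 0.47 and 0.64 in all 11 alternative fits. B2m ranked 110th and 105th by RPKM among the genes listed in the WT samples, and 66th and 59th in the mutants. With DESeq2 its adjusted p was 0.0126, in edgeR with replicate as a blocking term it was 0.163, and over all alternatives the adjusted p ran from 0.0126 to 0.704. No 50-base window of the B2m transcript in GENCODE M21 occurred in a transcript of another gene.

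H2-K1 and H2-D1 encode the classical heavy chains, which hold the peptide. For H2-K1 the RPKM was 74.8 and 47.6 in WT replicates 1 and 2 and 47.9 and 46.5 in Senp6-Mut replicates 1 and 2. WT replicate 1 was high, and the other 3 samples lay between 46.5 and 47.9. The log2 fold change of H2-K1 was -0.42 (SE 0.230, edgeR adjusted p = 0.448). For H2-D1 the RPKM was 81.7 and 54.9 in WT and 70.8 and 85.8 in the mutants. Here the extremes by RPKM were WT replicate 2 and Senp6-Mut replicate 2. By TMM-normalised CPM the highest was WT replicate 1, at 147 against 145 in Senp6-Mut replicate 2. The groups overlapped, with a log2 fold change of 0.15 (SE 0.220, edgeR adjusted p = 0.805). The H2-K1 difference was smaller than the 74.8 to 47.6 gap within the WT pair.

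The balance between the parts of the complex was compared within each sample, where sequencing depth cancels. H2-K1 had 0.915 and 0.867 of the H2-D1 RPKM in WT replicates 1 and 2, and 0.676 and 0.541 of it in Senp6-Mut replicates 1 and 2. Both mutant ratios were below both WT ratios, by 0.56 on the log2 scale, with SDs of 0.06 in WT and 0.23 in the mutants (n = 2 each). The heavy chains summed to 0.296 and 0.190 of the B2m RPKM in WT and to 0.158 and 0.152 in the mutants, a log2 difference of -0.61. These ratios, like those of Tap2 to Tap1 and Psmb9 to Tap1, were chosen after the values were seen. An exact two-sided permutation test of 2 against 2 samples cannot give a p below 0.333, so ratios are given without a test. The H2-K1 and H2-D1 counts carry an uncertainty of their own, since 8.79% of the 50-base windows of the H2-K1 transcript and 14.3% of those of H2-D1 also occur in transcripts of other genes, mostly other class I genes. How the service assigned reads that fit several genes is not given in the sources used here. The share of gene length covered by reads was 88.74% to 98.2% for H2-K1 and 94.01% to 99.83% for H2-D1, and these ranges overlapped between the genotypes.

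**Figure D2:**
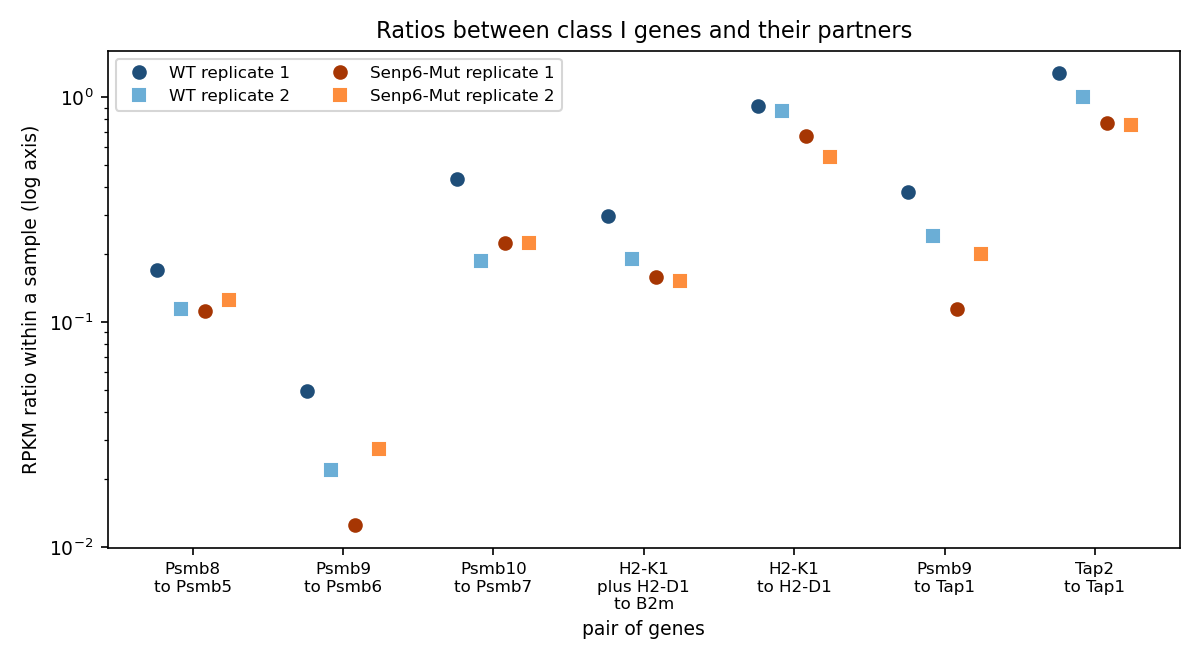
RPKM ratio of gene pairs within each sample (log axis), 1 point per sample. The ratios of the heavy chains to B2m, H2-K1 to H2-D1, Psmb9 to Tap1 and Tap2 to Tap1 are lower in both mutants than in both WT samples, and the immunoproteasome ratios overlap.

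Tap1 and Tap2 encode the subunits of the peptide transporter, and Tapbp encodes tapasin, which bridges it to the heavy chain. Tap1 had an RPKM of 16.7 and 11.4 in WT replicates 1 and 2 and of 13.2 and 17.5 in Senp6-Mut replicates 1 and 2, a log2 fold change of 0.08 (SE 0.234, edgeR adjusted p = 0.909). Tap2 had 21.4 and 11.4 in WT and 10.2 and 13.2 in the mutants, a log2 fold change of -0.54 (SE 0.311, edgeR adjusted p = 0.474). For both subunits the genotypes overlapped. The Tap2 to Tap1 ratio was 128% and 99.97% in WT and 77.0% and 75.3% in the mutants, a log2 difference of -0.57. The RPKM of Tapbp was 83.7 and 56.1 in WT and 54.7 and 60.4 in the mutants, with a log2 fold change of -0.33 (SE 0.213, edgeR adjusted p = 0.527). WT replicate 1 was again the high sample for Tap2 and Tapbp, and WT replicate 2 lay between the mutants for both.

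Psmb8, Psmb9 and Psmb10 encode the catalytic subunits of the immunoproteasome, which replace Psmb5, Psmb6 and Psmb7 of the constitutive proteasome and alter which peptides are made. Psmb8 had an RPKM of 14.1 and 9.42 in WT replicates 1 and 2 and 8.71 and 12.1 in Senp6-Mut replicates 1 and 2 (log2 fold change -0.22, SE 0.271, edgeR adjusted p = 0.756). Psmb10 was the most abundant of the 3, at 35.0 and 19.4 in WT and 20.8 and 22.7 in the mutants (log2 fold change -0.37, SE 0.283, edgeR adjusted p = 0.596). Psmb9 was the least abundant, at 6.38 and 2.75 in WT and 1.52 and 3.51 in the mutants, with 108, 58, 38 and 80 reads. Its log2 fold change of -0.91 was the lowest of the 10 genes and had the largest standard error, 0.545 (edgeR adjusted p = 0.493). The samples of each genotype differed by more than 2-fold in Psmb9, and the genotypes overlapped.

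The constitutive subunits stood well above their immunoproteasome counterparts in RPKM. Psmb5 lay between 77.8 and 96.8, Psmb6 between 122 and 129 and Psmb7 between 80.9 and 104, with log2 fold changes of 0.04, -0.06 and 0.02. Psmb8 was at 17.1% and 11.4% of Psmb5 in WT replicates 1 and 2 and at 11.2% and 12.5% in Senp6-Mut replicates 1 and 2. For Psmb9 against Psmb6 the values were 4.96% and 2.21% in WT and 1.25% and 2.72% in the mutants. For Psmb10 against Psmb7 they were 43.3% and 18.7% in WT and 22.5% and 22.5% in the mutants. All 3 ratios overlapped between the genotypes, and WT replicate 1 was the highest sample in each. Psmb9 and Tap1, which share the intergenic segment printed above, differed in their pattern: Psmb9 stood at 0.381 and 0.242 of the Tap1 RPKM in WT and at 0.115 and 0.201 in the mutants.

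Nlrc5 encodes the class I transactivator and was the lowest of the 10 genes. Its RPKM was 0.863 and 0.611 in WT replicates 1 and 2 and 0.757 and 1.17 in Senp6-Mut replicates 1 and 2, from 126, 111, 163 and 230 reads. Reads covered 69.98% and 76.5% of its length in WT and 86.72% and 88.25% in the mutants. The groups overlapped, and the log2 fold change was 0.34 (SE 0.310, edgeR adjusted p = 0.661). In order of RPKM, B2m was first in every sample and the last 2 places belonged to Psmb9 and Nlrc5. Between them, H2-D1, Tapbp and H2-K1 lay between 46.5 and 85.8, Psmb10 between 19.4 and 35.0, and Tap1, Tap2 and Psmb8 between 8.71 and 21.4, ranges that overlap within each of these groups of neighbours.

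The samples of a genotype differed from each other in a shared direction. By TMM-normalised CPM, WT replicate 1 was above WT replicate 2 for 10 of the 10 genes, with a median difference of 0.63 on the log2 scale, whereas this held for 49.5% of all tested genes, with a median of 0.00. This order was not particular to the 10 genes. Among tested genes it also held for 12 of 12 other class I heavy chain genes, 5 of 5 MHC class II genes and 12 of 12 striated muscle markers. It held for 3 of 14 constitutive proteasome subunits and 4 of 15 genes for peptide trimming and loading. For B2m the order of the WT samples was a matter of scaling, since its deposited RPKM was 528 in WT replicate 1 and 539 in WT replicate 2. Senp6-Mut replicate 2 was above Senp6-Mut replicate 1 for 9 of the 10, the exception being H2-K1, with a median difference of 0.29, and for 52.1% of all tested genes. Across the 4 samples the mean profile of the 10 genes, centred on each gene's own mean, was 0.41, -0.28, -0.24 and 0.10 on the log2 CPM scale in WT replicates 1 and 2 and Senp6-Mut replicates 1 and 2. Psmb8 lay nearest this mean profile among the 10 and Psmb9 farthest, at Euclidean distances of 0.107 and 1.0001, with B2m next at 0.845. By this distance Psmb8 ranked 22nd, B2m 9898th and Psmb9 11558th among the 14123 tested genes. Among 13954 tested genes outside the lists, those near to the mean profile over the 4 samples included Fam117a, Mfsd3, Klhl8 and Tfr2, at distances of 0.0351 to 0.0809.

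**Figure D3:**
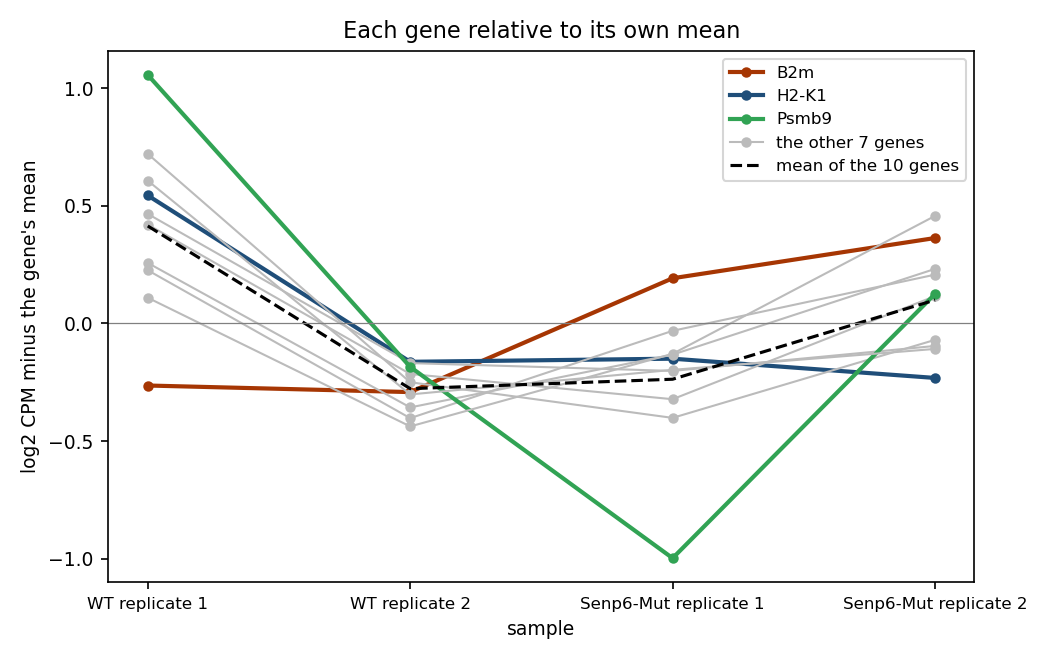
log2 CPM of each class I gene minus its own mean over the 4 samples, with the mean of the 10 genes dashed. WT replicate 1 is the high sample for most genes, while B2m is high in the mutants and Psmb9 spans from -0.998 in Senp6-Mut replicate 1 to 1.06 in WT replicate 1.

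The direction of most genes rested on which WT sample was used. Without WT replicate 1, the log2 fold changes were 0.57 for B2m (edgeR adjusted p = 0.0365), -0.03 for H2-K1, 0.02 for Tap2, 0.02 for Tapbp and 0.14 for Psmb10, and 1 of the 10 genes was called, where 3.72% of all genes were called higher and 1.06% lower. Without WT replicate 2, B2m was called higher at 0.52, and H2-K1 (-0.76), Tap2 (-0.98), Tapbp (-0.64) and Psmb10 (-0.79) were called lower in edgeR, where 9.42% of all genes were called higher and 10.6% lower. A fit with 1 WT sample assumes that it varies as the mutants do. B2m, H2-K1, Psmb9 and Nlrc5 kept their sign whichever sample was left out, and the other 6 genes changed it at least once.

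**Figure D4:**
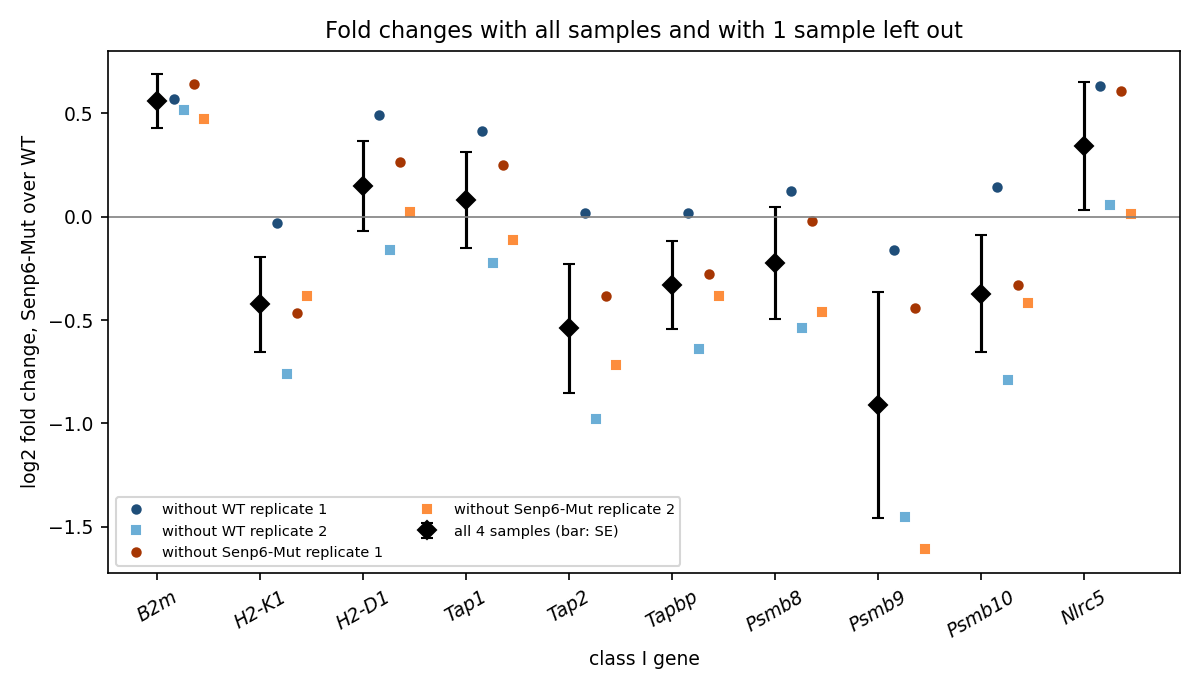
log2 fold change of Senp6-Mut over WT for each class I gene, with all 4 samples (black, bar: standard error) and with each sample left out in turn. B2m stays between 0.47 and 0.64, while Tap2, Tapbp and Psmb10 move from near or above 0 without WT replicate 1 to below -0.6 without WT replicate 2.

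Other genes of the class I route were taken from lists chosen by name. In edgeR 0 of the 14123 genes tested passed an adjusted p of 0.05, so 0 was the only possible count for this and the following lists. Of 15 genes for peptide trimming and loading, 0 passed an adjusted p of 0.05 in edgeR, their log2 fold changes ran from -0.32 to 0.34, and the median was 0.00. The chaperones of the loading complex were abundant: Calr (calreticulin) lay between 745 and 927 RPKM, Pdia3 between 342 and 427 and Canx (calnexin) between 105 and 146, with log2 fold changes of -0.23, -0.09 and 0.09. Erap1, which trims peptides, had -0.11 and Tapbpl, a tapasin relative that edits peptides, had 0.03. Psme1 and Psme2, the subunits of the interferon-inducible proteasome activator, had -0.21 and 0.05. Of the 14 constitutive proteasome subunits 0 passed, and their log2 fold changes ran from -0.17 to 0.25 with a median of 0.02.

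Of 20 other class I heavy chain and class I-like genes, 19 were listed and 12 tested, and 0 passed in edgeR. Both mutants were below both WT samples for 4 of the 12 (Hfe, Fcgrt, Cd1d1 and Mr1) and above them for 1 (H2-T24). The other 7 overlapped, and the median log2 fold change was 0.04. Of all tested genes, 22.8% had both mutants lower, 25.4% both higher and 51.9% overlapping groups. In edgeR 3 of the 12 had an unadjusted p under 0.05, against 15.6% of all tested genes: Hfe, Fcgrt and Cd1d1. The log2 fold change was -0.69 for Fcgrt (edgeR adjusted p = 0.314) and -0.62 for Cd1d1 (edgeR adjusted p = 0.230). These 5 genes are named after their values were seen. Fcgrt encodes the neonatal Fc receptor and Cd1d1 a lipid-presenting molecule, and the products of both pair with β2-microglobulin. H2-T23, which encodes Qa-1, had an RPKM of 8.27 and 3.75 in WT replicates 1 and 2 and 7.99 and 10.2 in Senp6-Mut replicates 1 and 2 (log2 fold change 0.55, edgeR adjusted p = 0.556). H2-Q4 had 16.8 and 12.7 in WT and 16.6 and 21.1 in the mutants (log2 fold change 0.31, edgeR adjusted p = 0.537). Both overlapped between the genotypes and had WT replicate 2 as the low sample. Hfe, whose class I-like product pairs with β2-microglobulin and takes part in iron sensing, had the smallest adjusted p of this list. It had 6.44 and 6.13 in WT and 2.62 and 2.26 in the mutants, with a log2 fold change of -1.40 (SE 0.218, edgeR adjusted p = 0.0833), so both mutants lay below both WT samples, opposite to B2m. The 4 tested genes of 8 class I-like stress ligands had log2 fold changes of 0.34 to 0.66, and 0 passed.

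**Figure D5:**
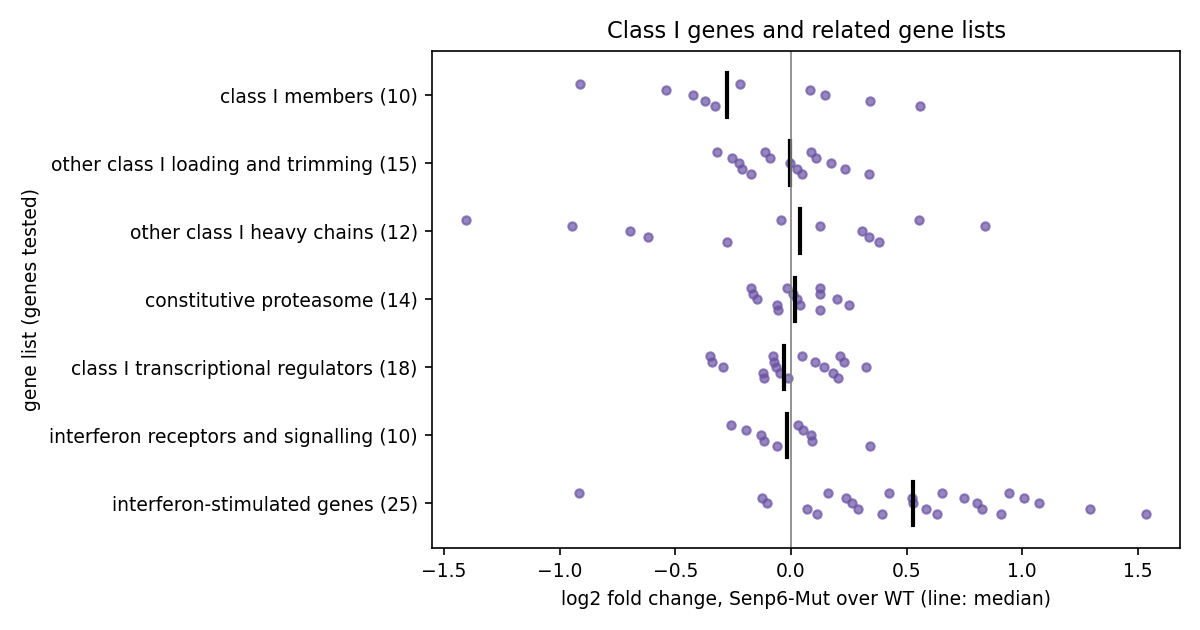
log2 fold change of Senp6-Mut over WT for every tested gene of the class I list and 6 related lists, 1 point per gene, with a line at each median. The class I genes have a median of -0.28 and the interferon-stimulated genes 0.53. No gene of these lists, and none of the 14123 tested, passed an adjusted p of 0.05 in edgeR.

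Of 18 regulators that act on class I promoters 0 passed in edgeR, with log2 fold changes from -0.35 to 0.32 and a median of -0.03. Irf1, an interferon-induced activator of class I genes, lay between 17.3 and 19.1 RPKM with a log2 fold change of -0.01 (SE 0.132). Irf2 had -0.12 (SE 0.140) and Rfx5, a subunit of the factor that binds the X box with NLRC5, -0.07 (SE 0.178). Of 12 interferon receptor and signalling genes 10 were tested and 0 passed, with a median of -0.02, and neither Ifng nor Ifnb1 was listed in any sample. The 25 interferon-stimulated genes had a median log2 fold change of 0.53 with 0 past the threshold and 5 at an unadjusted p under 0.05, where 15.6% of all tested genes had such a p. Like the class I genes, they were higher in WT replicate 1 than in WT replicate 2 (22 of 25) and higher in Senp6-Mut replicate 2 than in Senp6-Mut replicate 1 (25 of 25).

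Markers of the cells in the cultures were read beside these values. In bulk RNA, fewer cells of a type and less RNA per cell cannot be told apart. Of all tested genes, 25.4% had both mutants higher and 22.8% both lower, and 0 passed an adjusted p of 0.05 in edgeR. Of 14 chondrocyte markers 13 were listed, and the cartilage collagen gene Col2a1 had an RPKM of 609 and 659 in WT and 334 and 445 in the mutants. Col11a1 had 139 and 127 in WT and 97.0 and 89.0 in the mutants. All 13 were lower in both mutants than in both WT samples, with 0 past an adjusted p of 0.05 in edgeR, and the summed level was 1042 and 1011 in WT and 515 and 647 in the mutants. The 10 fibroblast and perichondrial markers summed to 12862 and 8894 in WT and 8964 and 6586 in the mutants. WT replicate 1 was thus the highest and Senp6-Mut replicate 2 the lowest, and the leading genes were Col1a1 and Col1a2. Of the 10, 6 were lower in both mutants, 1 was higher and 3 overlapped. The higher gene was Thy1, named after its values were seen, at 219 and 341 in WT and 609 and 832 in the mutants. The 12 striated muscle markers summed to 115 and 37.5 in WT and 199 and 221 in the mutants, with both mutants higher for 9 of 12, among them Acta1 and Des. The 10 osteoblast markers summed to 497 and 551 in WT and 511 and 654 in the mutants, most of it Spp1, with Alpl second by mean. Of the 6 tested, 5 were lower in both mutants, Alpl among them, and Spp1 alone was higher in both. The part of these cells in the class I values was not tested.

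Antigen-presenting cells and other leukocytes left few reads. The leukocyte markers summed to 23.1 and 21.5 RPKM in WT and 11.5 and 17.8 in the mutants over 13 listed of 15, with Ptprc at 0.0174 to 0.0427 and Adgre1 in no sample. Of their 8 tested genes 7 were lower in both mutants, where 22.8% of all tested genes were. Among the 7 were Lyz2, at 11.1 and 7.85 in WT and 2.53 and 4.76 in the mutants, and Cd68, at 3.30 to 5.31. The MHC class II list summed to 6.49 and 3.94 in WT and 4.89 and 7.56 in the mutants over 9 listed of 11, with H2-DMa and H2-DMb1 highest and the transactivator Ciita at or below 0.0396. The 10 endothelial markers, with Egfl7 highest in every sample and Kdr second by the mean over all 4 but below Tek in both WT samples, summed to 5.19 to 7.24 in the 4 samples, and the erythroid markers, of which 5 of 10 were listed and Alas2 and Hba-a1 had the highest means, to 0.05004 to 0.479. B2m stood at 528 or more and H2-D1 at 54.9 or more in every sample. RPKM of different genes does not give the share of a cell type. How much these cells added to the class I values was not tested.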

How the data were processed

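RNA-seq was made by the BGI service from poly(A) RNA of 2 WT and 2 Senp6-Mut cultures. The authors deposited, per gene, the read count without normalization, the RPKM (the count scaled to the listed length and to the sample's reads on genes) and how much of each gene was covered, in percent. The submitters' processing notes name SAMtools and mm9. The aligner, counting tool and strandedness are not given in the sources used here. A gene absent from a sample was given a count of 0.

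From the counts, edgeR 4.0.16 (R 4.3.3; glmQLFit and glmQLFTest, robust, TMM factors 0.966 to 1.03) compared Senp6-Mut with WT over the 14123 genes that reached 10 counts in 2 or more samples. Benjamini-Hochberg adjustment ran over all of them, with 0.05 as threshold. Standard errors came from the F statistic. At 38 or more reads per class I gene and sample, the spread between replicates limits precision more than depth. Ratios were taken from the RPKM. The edgeR script was tested on simulated counts with the same replicate spread set for every gene, which does not measure its power in these data.

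Replicates of a group differed far beyond sampling noise (chi-square over its degrees of freedom 48.6 in WT and 23.7 in Senp6-Mut). Promoters came from RefSeq (GRCm38.p6, most upstream start) and transcript windows from GENCODE M21; no coordinate was joined to the counts.

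The members, the gene lists and the tests were chosen with earlier results of these data known. Named genes are all 10 members, 17 set genes of other lists, any list gene past the threshold, the 2 markers of each cell type with the highest mean RPKM, and the 5 nearest profiles; some of these are not reported here. Alternatives were DESeq2 1.42.0, RLE size factors, 2 other filters, limma 3.58.1 on log2(RPKM + 1) and log2(RPKM + 0.1), replicate as a blocking term, and leaving out each sample. Genes outside this rule are said to be named after their values were seen, apart from defining markers listed at or near 0.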

Additional observations from a re-analysis of the deposited data

How the results depend on the processing

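In edgeR 0 of 14123 genes passed an adjusted p of 0.05. Without a low-count filter 286 passed, with the replicate number as a block 117, with DESeq2 697, and with 1 sample left out 143 to 2823, and for these the cause was not tested. RLE size factors, at least 10 counts in every sample and both limma fits also gave 0. Of the 10 class I genes, DESeq2 called 1 (B2m), and leaving out 1 sample gave 0 to 5, with 1 (B2m) without WT replicate 1 and 5 without WT replicate 2. Of the genes in the 6 other pathway lists, 2 passed without a filter (Hfe lower, Irgm1 higher), 3 with DESeq2 (these and Cxcl10, higher) and 0 to 8 with 1 sample left out, with 5 without WT replicate 1 and 8 both without WT replicate 2 and without Senp6-Mut replicate 1. These genes are named after their values were seen. Without a filter 18298 genes were tested. The number of all tested genes past the threshold differed with the sample left out, so equal list counts do not have the same meaning. The genes called without WT replicate 2 were mostly lower, and those called without Senp6-Mut replicate 1 were mostly higher. The median log2 fold change of the class I genes ran from -0.59 to 0.13 with 1 sample left out, the highest without WT replicate 1. With 1 sample left out the log2 fold change ran from -0.16 to 0.49 for H2-D1, from -0.22 to 0.41 for Tap1, from -0.98 to 0.018 for Tap2, from -0.64 to 0.015 for Tapbp, from -0.54 to 0.12 for Psmb8 and from -0.79 to 0.14 for Psmb10. The other settings reversed no class I gene. The labels do not say whether a replicate number marks a shared litter or day. The replicate differences correlated at -0.0422 between WT and Senp6-Mut over all tested genes. With 2 samples per group this value cannot decide whether the numbers mark pairs. With the replicate block no class I gene passed and the median was -0.25. Subunit ratios from TMM-normalised CPM per kilobase equal those from RPKM, since the scaling cancels within a sample.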
